A study of Arabidopsis thaliana with 14 samples.

Results

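Hydrogen peroxide was added back to bzr1-1D seedlings whose own production of reactive oxygen had been inhibited, and the transcriptome with DPI plus H2O2 was compared with that with DPI alone. BZR1 is the transcription factor through which brassinosteroids, the steroid hormones of plant growth, regulate their target genes, and bzr1-1D is a dominant allele that keeps it active when the hormone is scarce. DPI (diphenyleneiodonium) blocks flavin-containing enzymes, among them the NADPH oxidases that make the superoxide from which H2O2 forms. All seedlings had also received 2 µM PPZ (propiconazole), an inhibitor of brassinosteroid synthesis. The comparison addresses whether H2O2 brings back the transcript levels that bzr1-1D seedlings lose when DPI is present.

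The comparison used 5 of the 14 samples of the series, chosen by their labelled genotype and treatment. These were 2 samples of bzr1-1D given DPI (1 µM) and H2O2 (0.3 mM), and 3 samples of bzr1-1D given DPI (1 µM), in both cases on top of PPZ. The other groups are shown for their levels and are used near the end to sort genes into classes. They are bzr1-1D with PPZ alone (mock, 3 samples), Col-0 with PPZ and DPI (3 samples) and Col-0 with PPZ alone (mock, 3 samples). Col-0 is the wild type, all plants were of the Columbia ecotype, and all grew for 6 days in the dark. Among the samples used here H2O2 was given only to bzr1-1D and only on top of DPI. Its effect in Col-0 or without DPI was not analysed here. The same DPI mean enters both the ratio with H2O2 and the distance from mock. An error in that mean would shift both, so levels between DPI and mock are only described. The values are the authors' group means, in a unit that the files do not name and that is taken here as FPKM, with no value per sample, so no error between replicates and no test can be given, the depth is unknown, and every difference below is a description of these group means. The decimals of the means are those of averages over 2 libraries with DPI plus H2O2, 3 with DPI and 2 in bzr1-1D mock, so 1 labelled mock sample is not in its mean.

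Of 23468 genes in the comparison, 18232 reached a mean of 1 FPKM over both groups, and 18227 of these had a value above the lowest entry of the table (0.01 FPKM, a stand-in for 0) in both. With DPI plus H2O2, 4956 genes (27.2% of those compared) were at least 1.5-fold higher and 758 (4.16%) at least 1.5-fold lower than with DPI, or 31.3% in either direction. The median gene was itself 1.22-fold higher, a log2 ratio of 0.29. Relative to that median, 2155 genes (11.8%) were higher and 2123 (11.6%) lower, nearly equal numbers. These 2 pairs of percentages are the background for every count of genes below, and log2 ratios are as deposited unless they are said to be relative to the median. Differences of at least 4-fold were found for 61 higher and 5 lower genes.

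**Figure D1:**
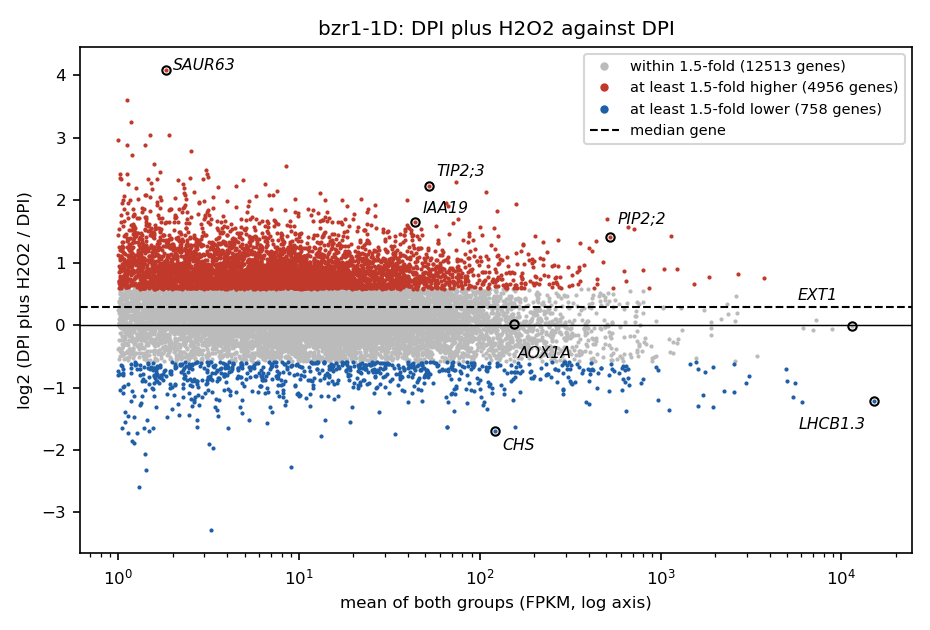
Log2 ratio of DPI plus H2O2 over DPI in bzr1-1D (vertical axis) against the mean of both group means in FPKM (horizontal log axis), 1 point per gene compared. The dashed line at 0.29 is the median gene; most of the red points lie at low levels, whereas LHCB1.3, the most abundant gene, is blue.

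The direction varied with the level of the gene. Among genes of 1 to 3 FPKM, 38.9% were higher and 5.12% lower, with a median log2 ratio of 0.42. Among the 1150 genes of 100 FPKM and over, 13.4% were higher and 11.9% lower, with a median of -0.03. The most abundant transcripts took a smaller share of the total with H2O2. The 10 most abundant genes held 9.30% of all FPKM with DPI plus H2O2 and 13.0% with DPI, and the light-harvesting antenna genes held 2.14% and 4.23% in the same order of groups. FPKM are shares of a library, so the shares of all genes are tied to each other, and the part of the abundant transcripts in the shift of the median was not tested.

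Promoters of 6 genes are shown because these genes stand for the 3 kinds of response described below: auxin response genes with higher values with H2O2 (IAA19, SAUR63 and SAUR15), a pigment gene that was lower (CHS), and genes of the mitochondrial stress response that were not lower (UPOX, HSP23.5). Each is the 300 bases before the annotated gene start, 5′ to 3′ on the gene's own strand, from the RefSeq annotation of TAIR10.1; the authors' notes name TAIR10, and the coordinates in their files lay within the RefSeq gene for all 23270 nuclear genes compared. IAA19 (chr3:5263701-5264000, plus strand) and CHS (chr5:4488176-4488475, plus strand) have the G-box CACGTG in capitals, a site known to be bound by PIF factors, HY5 and BZR1. SAUR15 (chr4:18125757-18126056, plus strand) and SAUR63 (chr1:10305109-10305408, minus strand) have the PBE-box CACATG, or its complement CATGTG, in capitals, another site of PIF factors. UPOX (chr2:9254078-9254377, plus strand) and HSP23.5 (chr5:20890863-20891162, plus strand) have the mitochondrial dysfunction motif in capitals, CTTG followed after 5 bases by CAAG or CACG, where NAC factors of the mitochondrial stress response bind. Only the motif named for each gene is in capitals. Other motifs counted below stay in lower case, such as TGTCTC in IAA19 and a G-box in UPOX. SAUR15 had 1.64 FPKM with DPI plus H2O2, against 0.183 FPKM with DPI and 2.54 FPKM in mock, a mean under the minimum of 1 FPKM, so it is not among the genes compared or counted.
IAA19: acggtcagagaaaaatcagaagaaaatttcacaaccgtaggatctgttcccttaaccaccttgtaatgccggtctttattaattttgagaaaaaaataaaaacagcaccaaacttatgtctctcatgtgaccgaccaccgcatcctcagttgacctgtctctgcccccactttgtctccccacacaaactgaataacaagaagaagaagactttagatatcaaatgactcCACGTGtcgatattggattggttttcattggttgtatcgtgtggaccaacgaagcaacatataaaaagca
SAUR15: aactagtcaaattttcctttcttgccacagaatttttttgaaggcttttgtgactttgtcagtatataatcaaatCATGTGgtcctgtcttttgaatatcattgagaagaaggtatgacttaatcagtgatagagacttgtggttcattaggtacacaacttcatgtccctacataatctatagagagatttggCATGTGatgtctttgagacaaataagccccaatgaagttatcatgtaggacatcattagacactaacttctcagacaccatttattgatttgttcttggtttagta
SAUR63: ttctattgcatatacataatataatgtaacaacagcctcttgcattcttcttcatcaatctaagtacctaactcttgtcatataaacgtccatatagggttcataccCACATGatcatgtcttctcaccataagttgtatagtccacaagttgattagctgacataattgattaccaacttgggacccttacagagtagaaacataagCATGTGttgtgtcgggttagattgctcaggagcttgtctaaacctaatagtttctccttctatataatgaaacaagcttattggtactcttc
CHS: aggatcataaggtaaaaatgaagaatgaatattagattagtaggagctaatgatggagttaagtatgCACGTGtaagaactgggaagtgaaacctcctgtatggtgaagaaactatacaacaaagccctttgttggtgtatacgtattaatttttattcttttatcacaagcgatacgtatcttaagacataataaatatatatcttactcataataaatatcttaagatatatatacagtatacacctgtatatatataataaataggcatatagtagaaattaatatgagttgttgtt
UPOX: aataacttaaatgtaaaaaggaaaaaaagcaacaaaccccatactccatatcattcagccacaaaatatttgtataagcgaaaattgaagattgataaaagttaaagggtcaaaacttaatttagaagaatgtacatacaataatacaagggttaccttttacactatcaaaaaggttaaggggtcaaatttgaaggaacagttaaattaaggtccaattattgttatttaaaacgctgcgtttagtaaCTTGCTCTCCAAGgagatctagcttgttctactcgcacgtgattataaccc
HSP23.5: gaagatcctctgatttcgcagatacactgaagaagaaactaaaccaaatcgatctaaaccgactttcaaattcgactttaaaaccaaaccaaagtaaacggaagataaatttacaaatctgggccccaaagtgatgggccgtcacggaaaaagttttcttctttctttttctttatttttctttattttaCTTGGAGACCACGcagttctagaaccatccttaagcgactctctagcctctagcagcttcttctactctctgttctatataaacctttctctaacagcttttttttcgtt

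Across all genes these motifs did not separate higher from lower promoters. A G-box was present on either strand in 7.57% of the 4951 promoters of higher genes, 7.66% of the 731 promoters of lower genes and 7.78% of all 23269 promoters read. The brassinosteroid response element CGTGTG or CGTGCG, a site of BZR1 that overlapped a G-box in 309 promoters, was in 7.53%, 6.84% and 7.88% of them in the same order. The PBE-box was in 13.9%, 14.9% and 13.3%, the auxin response element TGTCTC in 12.1%, 14% and 13%, and the as-1 core TGACG in 22.7%, 21.6% and 21.8%. The evening element, AAAA followed directly by TATCT, was in 2.71%, 3.69% and 2.84%, and the mitochondrial dysfunction motif in 1.23%, 1.23% and 1.29%. Within gene lists some shares were larger: the PBE-box was in 27 of 72 promoters of the Aux/IAA and SAUR genes compared, and the mitochondrial dysfunction motif in 5 of 18 promoters of the mitochondrial stress genes. The G-box, shown in IAA19, was in only 4 of the same 72 promoters (5.56%). It was in 5 of 21 antenna promoters (23.8%) and 2 of 15 flavonoid promoters. A match is a run of letters in this window, not a binding site.

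Of the auxin response genes, those of the Aux/IAA and SAUR families were mostly on the higher side. Aux/IAA proteins are short-lived repressors that auxin induces and that curb its own response, and SAUR proteins activate the proton pumps of the plasma membrane in elongating cells. Of 29 Aux/IAA genes, 23 could be compared, and 19 of these were at least 1.5-fold higher and none lower (27.2% and 4.16% of all genes). Their median log2 ratio was 0.94, and 12 of the 23 stayed 1.5-fold higher relative to the median gene. IAA19, a target of BZR1 and PIF4 in growing hypocotyls, had 66.6 FPKM with DPI plus H2O2, against 21.3 FPKM with DPI and 86.4 FPKM in mock (log2 ratio 1.65). IAA7 (AXR2), the most abundant member, had 244 FPKM with DPI plus H2O2, against 100.2 FPKM with DPI and 244 FPKM in mock (log2 ratio 1.28). The level of IAA7 with H2O2 was thus that of mock. IAA6 had 4.42 FPKM with DPI plus H2O2, against 0.640 FPKM with DPI and 8.79 FPKM in mock, and IAA3 (SHY2) had 37.6 FPKM with DPI plus H2O2, against 12.4 FPKM with DPI and 45.2 FPKM in mock. Reads of IAA3 cannot be told apart from those of AT1G04230, which overlaps it, where strand was not used in counting, and the strand setting is not given in the sources used here.

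Of 78 SAUR genes, 49 were compared, 31 were higher and 4 lower, with a median log2 ratio of 0.93. The list holds many weakly expressed genes, and 11 of those compared had less than 1 FPKM in 1 of the 2 groups. SAUR20, 1 of the SAUR19 subfamily that promotes hypocotyl elongation, had 15.2 FPKM with DPI plus H2O2, against 3.74 FPKM with DPI and 18.08 FPKM in mock (log2 ratio 2.03). SAUR63, also a promoter of organ elongation, had 3.46 FPKM with DPI plus H2O2, against 0.203 FPKM with DPI and 4.70 FPKM in mock, the largest log2 ratio of all genes compared (4.09), with a DPI level under 1 FPKM. SAUR78 had 45.8 FPKM with DPI plus H2O2, against 19.6 FPKM with DPI and 57.8 FPKM in mock, and SAUR55 had 26.3 FPKM with DPI plus H2O2, against 10.9 FPKM with DPI and 27.1 FPKM in mock. The 4 lower members were SAUR51, SAUR60, SAUR71 and SAUR72, and SAUR71 had 2.12 FPKM with DPI plus H2O2 and 4.83 FPKM with DPI. SAUR genes of a cluster are close copies of each other, so reads may be divided between neighbours such as SAUR63 and SAUR64. SAUR63 also overlaps AT1G29435 by 602 bases, and reads there may belong to either gene. AT1G29435 had 0.745 FPKM with DPI plus H2O2 and the lowest value, 0.01 FPKM, with DPI.

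The remaining auxin genes listed differed less. They cover synthesis, transport and perception, and also the response factors ARF6, ARF7 and ARF8 and GH3 genes. Of 26 compared, 3 were higher and none lower, a smaller share than among all genes, and their median log2 ratio of 0.22 lies below that of the median gene. TAA1, which makes the auxin precursor indole-3-pyruvate, had 23.46 FPKM with DPI plus H2O2 and 13.5 FPKM with DPI, whereas the receptor TIR1 had 58.2 FPKM with DPI plus H2O2 and 81.2 FPKM with DPI and the efflux carrier PIN3 had 89.6 FPKM with DPI plus H2O2 and 89.2 FPKM with DPI.

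The basic helix-loop-helix factors that control cell elongation as activators and inhibitors of each other were higher in 9 of 17 members compared and lower in none (median log2 ratio 0.67). BEE3, induced early by brassinosteroid, had 8.16 FPKM with DPI plus H2O2, against 2.52 FPKM with DPI and 9.68 FPKM in mock (log2 ratio 1.69). BEE1 had 17.2 FPKM with DPI plus H2O2, against 7.31 FPKM with DPI and 12.8 FPKM in mock, and HBI1, an activator of expansin genes, had 12.04 FPKM with DPI plus H2O2, against 5.16 FPKM with DPI and 12.4 FPKM in mock. The inhibitor IBH1, which binds HBI1, was higher as well, with 86.0 FPKM with DPI plus H2O2, against 37.3 FPKM with DPI and 58.5 FPKM in mock. Activators and inhibitors of elongation were therefore both among the higher genes, and BEE1 and IBH1 were above their mock level. PIF4, a partner of BZR1 at growth genes, had 9.23 FPKM with DPI plus H2O2, against 4.78 FPKM with DPI and 13.2 FPKM in mock (log2 ratio 0.95), and PIF5 had 10.5 FPKM with DPI plus H2O2, against 5.32 FPKM with DPI and 16.0 FPKM in mock. In the list of PIF and light signalling genes, 6 of 19 were higher and 1 lower, close to the shares among all genes.

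The receptor and signalling components of the brassinosteroid pathway itself stayed within 1.5-fold in 15 of 17 cases. BRI1, the receptor, had 72.2 FPKM with DPI plus H2O2, against 75.9 FPKM with DPI and 80.1 FPKM in mock, and BIN2, the kinase that inactivates BZR1, had 231 FPKM with DPI plus H2O2, against 226 FPKM with DPI and 275 FPKM in mock. BZR1 had 40.8 FPKM with DPI plus H2O2, against 35.7 FPKM with DPI and 50.7 FPKM in mock, which counts transcripts of the bzr1-1D allele and does not check the genotype. The exceptions were the receptor-associated kinases BSK1 (log2 ratio 0.89) and BSK2, with 4.92 FPKM with DPI plus H2O2 and 3.13 FPKM with DPI. Of the genes of brassinosteroid synthesis and inactivation, 6 of 12 were higher and none lower. They included the synthesis genes ROT3, with 26.1 FPKM with DPI plus H2O2, against 11.7 FPKM with DPI and 20.9 FPKM in mock, and DWF4, with 3.55 FPKM with DPI plus H2O2, against 1.69 FPKM with DPI and 5.15 FPKM in mock, and inactivating enzymes, namely SOB7 with 24.7 FPKM with DPI plus H2O2, against 12.2 FPKM with DPI and 21.8 FPKM in mock and BEN1 with 24.9 FPKM with DPI plus H2O2, against 11.1 FPKM with DPI and 26.5 FPKM in mock. CPD and DWF4 are both synthesis genes repressed through BZR1, and they differed in direction, DWF4 being higher with H2O2. CPD had 87.7 FPKM with DPI plus H2O2, against 112 FPKM with DPI and 171 FPKM in mock. CPD stayed within 1.5-fold as deposited and was lower relative to the median gene. BR6OX2, another synthesis gene, was higher, with 4.85 FPKM with DPI plus H2O2, against 2.88 FPKM with DPI and 4.34 FPKM in mock. Its level in Col-0 mock was 53.5 FPKM. Reads of SOB7 cannot be told apart from those of AT1G17065, which overlaps it.

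**Figure D2:**
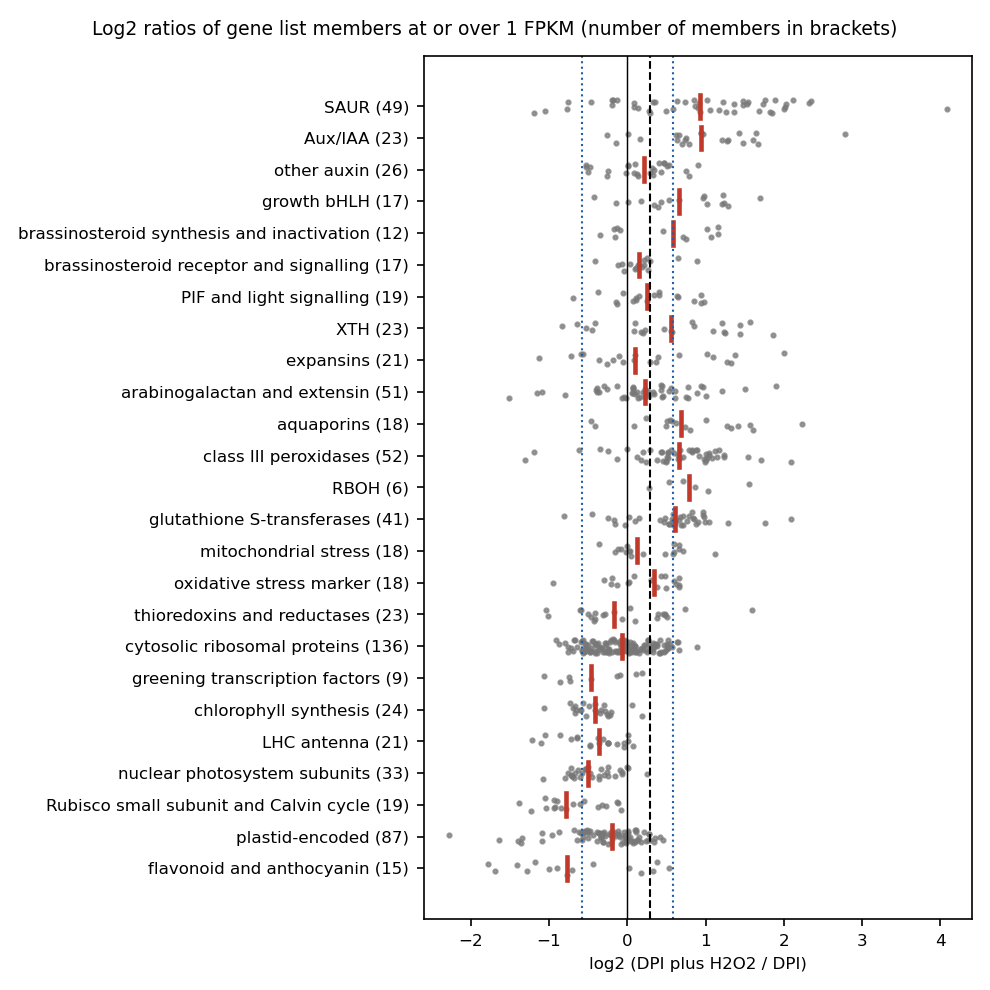
Log2 ratio of DPI plus H2O2 over DPI for each member of 25 gene lists with a mean of at least 1 FPKM (grey points; number compared in brackets); red bars are medians of the list, the dashed line is the median gene and the dotted lines mark 1.5-fold. SAUR and Aux/IAA medians lie right of 1.5-fold at 0.93 and 0.94, and the flavonoid and Calvin cycle medians lie left of it at -0.78 and -0.79.

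Among cell wall genes the classes differed. XTH enzymes cut and rejoin xyloglucan, and expansins loosen the wall without hydrolysis. Of 23 XTH genes compared, 10 were higher and 2 lower. XTH17 had 37.5 FPKM with DPI plus H2O2, against 10.3 FPKM with DPI and 81.7 FPKM in mock (log2 ratio 1.86), XTH18 had 151 FPKM with DPI plus H2O2, against 55.3 FPKM with DPI and 229 FPKM in mock, and XTH19 had 60.6 FPKM with DPI plus H2O2, against 20.5 FPKM with DPI and 136 FPKM in mock. XTH15, the most abundant member, was not among them, with 982 FPKM with DPI plus H2O2, against 1345 FPKM with DPI and 1681 FPKM in mock (log2 ratio -0.45), and XTH9 was lower, with 26.8 FPKM with DPI plus H2O2 and 47.8 FPKM with DPI. All 4 expansin-like genes were higher, among them EXLA2 with 31.0 FPKM with DPI plus H2O2, against 12.3 FPKM with DPI and 27.1 FPKM in mock. Of the 15 alpha expansins, 3 were higher and 3 lower, and the most abundant, EXPA9, had 341 FPKM with DPI plus H2O2 and 321 FPKM with DPI. Cellulose synthases of the primary wall were close in both groups, such as CESA1 with 145 FPKM with DPI plus H2O2 and 144 FPKM with DPI.

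Extensins are structural wall proteins that H2O2 and peroxidases cross-link. Of 51 arabinogalactan and extensin genes compared, 12 were higher and 4 lower, a smaller share higher than among all genes. Their median log2 ratio of 0.23 lies below that of the median gene. EXT1 was the most abundant of them, with 11450.5 FPKM with DPI plus H2O2, against 11538 FPKM with DPI and 2770.4 FPKM in mock. Both DPI groups were far above mock for EXT1 and differed by a log2 ratio of -0.01. Among the higher members, AGP22 had 28.9 FPKM with DPI plus H2O2, against 7.74 FPKM with DPI and 101 FPKM in mock. AGP14, also higher, had 27.3 FPKM with DPI plus H2O2, against 9.63 FPKM with DPI and 68.2 FPKM in mock. The cell wall linker protein gene CWLP had 3602 FPKM with DPI plus H2O2, against 8497 FPKM with DPI and 2237 FPKM in mock, a difference of -4895 FPKM that only LHCB1.3 exceeded; its locus overlaps AT3G22121, not analysed here. Beta-xylosidase BXL1, which trims hemicellulose side chains, had 106 FPKM with DPI plus H2O2, against 28.0 FPKM with DPI and 333 FPKM in mock, and the beta-galactosidase gene BGAL4 had 103 FPKM with DPI plus H2O2, against 26.7 FPKM with DPI and 139 FPKM in mock.

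Aquaporins, the water channels of the plasma membrane (PIP) and the tonoplast (TIP), were higher in 10 of 18 genes compared and lower in none (median log2 ratio 0.68). Their summed level was 7212 FPKM with DPI plus H2O2, against 4596 FPKM with DPI and 15464 FPKM in mock. TIP2;3 had 86.4 FPKM with DPI plus H2O2, against 18.3 FPKM with DPI and 376 FPKM in mock (log2 ratio 2.24), TIP2;2 had 179 FPKM with DPI plus H2O2, against 60.6 FPKM with DPI and 755 FPKM in mock, and PIP2;2 had 768 FPKM with DPI plus H2O2, against 288 FPKM with DPI and 1577 FPKM in mock. These genes stayed below their mock level. PIP2;2 and PIP2;3 are close copies, and their reads may be divided between them. TIP2;3 and TIP2;2 are best known from roots, and of 9 root markers compared 5 were higher and 1 lower, as given below.

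Among the lists examined, those of photosynthesis genes were on the lower side. Etiolated seedlings keep these genes low until light, through PIF factors among others, and BZR1 represses greening. Of 21 light-harvesting antenna genes, 7 were at least 1.5-fold lower and none higher (median log2 ratio -0.36, and 12 lower relative to the median gene). LHCB1.3 had 9110.0 FPKM with DPI plus H2O2, against 21224 FPKM with DPI and 4400.5 FPKM in mock (log2 ratio -1.22). LHCB1.2 had 1452 FPKM with DPI plus H2O2, against 3007 FPKM with DPI and 596 FPKM in mock, and LHCB4.1 had 440.4 FPKM with DPI plus H2O2, against 799.5 FPKM with DPI and 426 FPKM in mock. LHCB1.5 had 774 FPKM with DPI plus H2O2 and 771 FPKM with DPI and did not take part. The LHCB1 genes are nearly identical, so the values of single copies are uncertain, but the sum over the list was 14996 FPKM with DPI plus H2O2, against 30044 FPKM with DPI and 7900.1 FPKM in mock.

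Among nuclear photosystem subunits, 11 of 33 were lower and none higher. PSAG, a subunit of photosystem I, had 1643 FPKM with DPI plus H2O2, against 3454 FPKM with DPI and 1036 FPKM in mock; AT1G55673, which overlaps it, had 3348 FPKM with DPI plus H2O2 and 7464 FPKM with DPI, and reads of the 2 cannot be told apart without strand. Of the genes for the Rubisco small subunit and the Calvin cycle, 12 of 19 were lower (median log2 ratio -0.79). RBCS1A, a Rubisco small subunit gene with close copies, had 3795 FPKM with DPI plus H2O2, against 7256 FPKM with DPI and 3725 FPKM in mock, and GAPA1, of the reducing step of the cycle, had 187 FPKM with DPI plus H2O2, against 387 FPKM with DPI and 222 FPKM in mock. With H2O2, RBCS1A was close to its mock level and GAPA1 somewhat below it. In chlorophyll synthesis 8 of 24 genes were lower. GUN4, which activates magnesium chelatase, had 60.1 FPKM with DPI plus H2O2, against 126 FPKM with DPI and 34.9 FPKM in mock (log2 ratio -1.06), and PORB, the light-dependent protochlorophyllide reductase, had 1501 FPKM with DPI plus H2O2, against 2389 FPKM with DPI and 615 FPKM in mock.

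Of the transcription factors and regulators of greening, 4 of 9 were lower. GLK1, an activator of antenna and chlorophyll genes, had 25.7 FPKM with DPI plus H2O2, against 46.7 FPKM with DPI and 15.8 FPKM in mock, and its paralog GLK2 had 19.4 FPKM with DPI plus H2O2, against 32.3 FPKM with DPI and 23.65 FPKM in mock. HY5, which promotes photomorphogenesis, had 10.08 FPKM with DPI plus H2O2 and 9.30 FPKM with DPI. Plastid-encoded genes were lower in 13 of 87 cases and higher in none. Of 16 plastid genes whose description names photosystem II, 7 were lower, against 1 of 25 plastid ribosomal protein genes. The 16 and the 7 include ATCG00210, which is described as part of the cytochrome b6/f complex. The gene for photosystem II protein M (ATCG00220) had 622 FPKM with DPI plus H2O2, against 1594 FPKM with DPI and 1368 FPKM in mock. Plastid transcripts are poorly polyadenylated, so their levels in mRNA libraries depend on the library preparation.

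Flavonoid genes were lower as a group. Of 15 compared, 9 were lower and none higher (median log2 ratio -0.78). CHS, which catalyses the entry step, had 57.1 FPKM with DPI plus H2O2, against 185 FPKM with DPI and 8.57 FPKM in mock (log2 ratio -1.70), and F3H had 5.97 FPKM with DPI plus H2O2, against 20.5 FPKM with DPI and 1.27 FPKM in mock (log2 ratio -1.78). The flavonol synthase FLS1 had 10.6 FPKM with DPI plus H2O2, against 19.7 FPKM with DPI and 1.08 FPKM in mock, and PAP1, the MYB activator of anthocyanin genes, had 4.91 FPKM with DPI plus H2O2, against 11.9 FPKM with DPI and 0.390 FPKM in mock. The genes upstream of CHS in phenylpropanoid synthesis did not follow: PAL1 had 40.1 FPKM with DPI plus H2O2 and 27.7 FPKM with DPI, and C4H had 80.1 FPKM with DPI plus H2O2 and 71.0 FPKM with DPI. CHS, F3H and PAP1 remained above mock with H2O2. The photoprotective ELIP1 and ELIP2 behaved in the same manner, and ELIP1 had 15.5 FPKM with DPI plus H2O2, against 52.0 FPKM with DPI and 3.35 FPKM in mock.

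**Figure D3:**
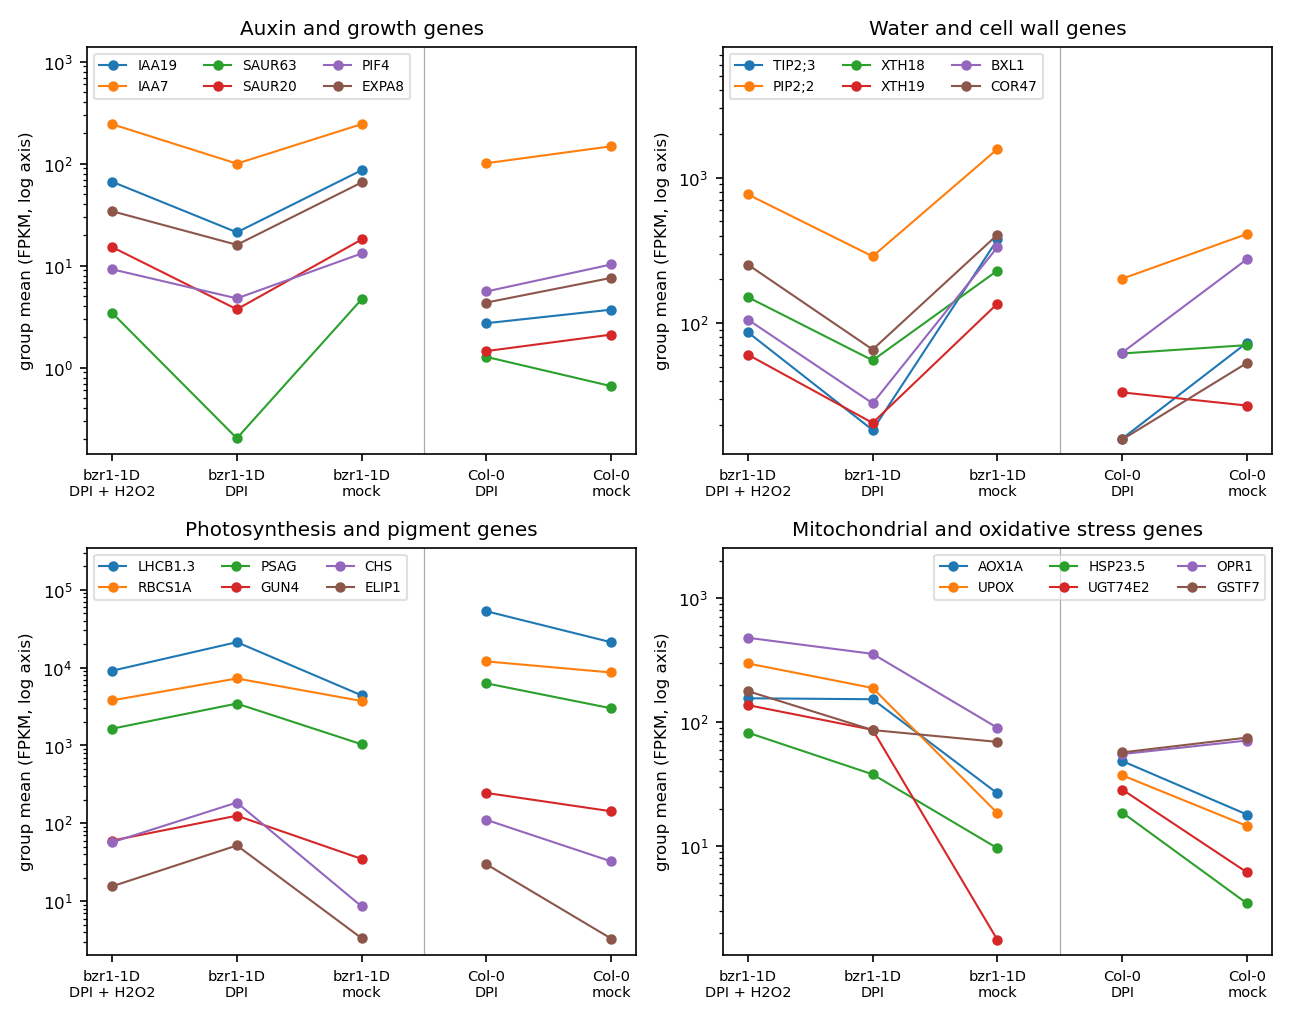
Group means in FPKM (log axes) of 24 genes in 4 panels, for bzr1-1D with DPI plus H2O2, with DPI and in mock (left of the grey line) and for Col-0 with DPI and in mock (right of it). Points are the authors' means without error bars, and lines only join points of a gene. In the first 2 panels the DPI plus H2O2 points lie between those of DPI and mock or reach mock. Genes were named partly by their ratio to the same DPI mean, so this position is not separate evidence of a return. In the last panel AOX1A has 155 FPKM with DPI plus H2O2 and 153 FPKM with DPI, far above 26.6 FPKM in mock.

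Genes of the mitochondrial retrograde response, which reports respiratory dysfunction to the nucleus, were not lower with H2O2. Of 18 compared, 6 (33.3%) were higher and none lower, close to the 27.2% and 4.16% of all genes. Relative to the median gene 1 was higher and 1 lower. The median log2 ratio of 0.13 is positive as deposited and negative relative to the median gene. AOX1A, the alternative oxidase that bypasses part of the respiratory chain, had 155 FPKM with DPI plus H2O2, against 153 FPKM with DPI and 26.6 FPKM in mock (log2 ratio 0.03). UPOX, a mitochondrial protein induced by oxidative stress, had 297 FPKM with DPI plus H2O2, against 188 FPKM with DPI and 18.4 FPKM in mock (log2 ratio 0.66). HSP23.5, a mitochondrial small heat shock protein, had 82.1 FPKM with DPI plus H2O2, against 37.9 FPKM with DPI and 9.60 FPKM in mock (log2 ratio 1.12), and the glucosyltransferase gene UGT74E2 had 137 FPKM with DPI plus H2O2, against 86.5 FPKM with DPI and 1.75 FPKM in mock. NDB2, an external NAD(P)H dehydrogenase, had 39.6 FPKM with DPI plus H2O2 and 38.2 FPKM with DPI. NDB4, of the same family, had 10.01 FPKM with DPI plus H2O2, against 9.80 FPKM with DPI and 0.205 FPKM in mock. The summed level of the list was 1220.0 FPKM with DPI plus H2O2, against 1018 FPKM with DPI and 340.2 FPKM in mock. In Col-0 it was 522 FPKM with DPI and 339 FPKM in mock.

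Glutathione S-transferases, which conjugate glutathione to electrophiles, were higher in 24 of 41 genes compared and lower in 1. GSTF7 had 177 FPKM with DPI plus H2O2, against 86.2 FPKM with DPI and 69.1 FPKM in mock (log2 ratio 1.04), GSTF4 had 11.04 FPKM with DPI plus H2O2, against 2.59 FPKM with DPI and 13.8 FPKM in mock, and GSTF2, the most abundant, had 1044 FPKM with DPI plus H2O2, against 691 FPKM with DPI and 769.9 FPKM in mock. GSTF7 was above its level in DPI and in mock. Of the oxidative stress markers, 5 of 18 were higher and 1 lower, shares close to those of all genes, and no higher call was left relative to the median gene. OPR1, an oxophytodienoate reductase, had 478 FPKM with DPI plus H2O2, against 355 FPKM with DPI and 89.8 FPKM in mock, and the zinc finger factor ZAT10 had 8.19 FPKM with DPI plus H2O2, against 15.9 FPKM with DPI and 5.55 FPKM in mock.

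NADPH oxidases (RBOH) were weakly expressed, and 4 of 6 compared were higher. RBOHB had 3.53 FPKM with DPI plus H2O2, against 1.197 FPKM with DPI and 5.33 FPKM in mock, RBOHF had 3.25 FPKM with DPI plus H2O2, against 2.24 FPKM with DPI and 3.52 FPKM in mock, and RBOHD, the most abundant, had 9.61 FPKM with DPI plus H2O2, against 7.95 FPKM with DPI and 8.21 FPKM in mock. Class III peroxidases, which use H2O2 in the wall, were higher in 29 of 52 and lower in 3 (median log2 ratio 0.66). The most abundant, AT2G37130, had 1061 FPKM with DPI plus H2O2, against 364 FPKM with DPI and 1728 FPKM in mock (log2 ratio 1.54). Of the catalases, which destroy H2O2, CAT3 had 2612 FPKM with DPI plus H2O2, against 2059 FPKM with DPI and 4158 FPKM in mock and CAT2 had 130.5 FPKM with DPI plus H2O2, against 179 FPKM with DPI and 189 FPKM in mock. CSD1, a cytosolic copper/zinc superoxide dismutase, had 268 FPKM with DPI plus H2O2, against 132 FPKM with DPI and 200.2 FPKM in mock, whereas FSD1, the iron form, had 501 FPKM with DPI plus H2O2, against 789.8 FPKM with DPI and 223 FPKM in mock. CSD3 was also higher and FSD3 also lower, whereas CSD2 and FSD2 stayed within 1.5-fold, and the copper chaperone gene CCS was higher, with 83.6 FPKM with DPI plus H2O2 and 49.4 FPKM with DPI.

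The plastid thioredoxins of types f, m, x, y and z were lower in 4 of 10 genes and higher in none. TRXZ, a partner of the plastid RNA polymerase, had 24.3 FPKM with DPI plus H2O2, against 50.1 FPKM with DPI and 12.6 FPKM in mock (log2 ratio -1.04), and TRXM1 had 66.3 FPKM with DPI plus H2O2, against 134 FPKM with DPI and 54.5 FPKM in mock (log2 ratio -1.02). Of the mainly cytosolic type h, 2 of 8 were higher and none lower, a share higher close to that of all genes. TRXH5, a cytosolic thioredoxin, had 18.6 FPKM with DPI plus H2O2, against 14.3 FPKM with DPI and 38.2 FPKM in mock, a log2 ratio of 0.38 against 0.29 for the median gene. Of the peroxiredoxins, the plastid PRXIIE had 238 FPKM with DPI plus H2O2, against 567 FPKM with DPI and 134 FPKM in mock, and the cytosolic PRXIIC had 562 FPKM with DPI plus H2O2, against 239 FPKM with DPI and 1611 FPKM in mock; PRXIIC has close copies that may share its reads.

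Genes outside the lists were also among the 12 highest and 12 lowest log2 ratios of genes with at least 10 FPKM. The highest was AT1G19530, annotated in the files as a DNA polymerase epsilon subunit, with 123 FPKM with DPI plus H2O2, against 24.97 FPKM with DPI and 369 FPKM in mock (log2 ratio 2.29). MSRB7, a methionine sulfoxide reductase that repairs oxidized methionine, had 21.2 FPKM with DPI plus H2O2, against 4.92 FPKM with DPI and 80.9 FPKM in mock (log2 ratio 2.11). The dehydrin gene COR47 had 252 FPKM with DPI plus H2O2, against 65.7 FPKM with DPI and 405 FPKM in mock (log2 ratio 1.94), and MYB59, a regulator of growth and nutrient responses, had 63.0 FPKM with DPI plus H2O2, against 15.8 FPKM with DPI and 115 FPKM in mock. Among the lowest, and itself a member of the root marker list, was NRT2.1, a high-affinity nitrate transporter, with 7.18 FPKM with DPI plus H2O2, against 20.6 FPKM with DPI and 0.495 FPKM in mock (log2 ratio -1.52). The carboxylesterase gene CXE13 had 9.79 FPKM with DPI plus H2O2, against 28.7 FPKM with DPI and 2.83 FPKM in mock. AT1G25112 and AT1G25025 had identical values in all 5 groups (32.0 FPKM with DPI plus H2O2 and 99.2 FPKM with DPI) and count the same reads or exact copies.

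The transcripts with the largest differences in FPKM were abundant ones. AT5G10435 had 4678 FPKM with DPI plus H2O2, against 2773 FPKM with DPI and 10328 FPKM in mock, and it overlaps the arabinogalactan protein gene AGP4, which had 1598 FPKM with DPI plus H2O2, against 859.7 FPKM with DPI and 3423 FPKM in mock. MT1A, a metallothionein that binds metals, had 3421 FPKM with DPI plus H2O2, against 1948 FPKM with DPI and 4264 FPKM in mock, and AT1G12080, annotated as vacuolar calcium-binding, had 1667 FPKM with DPI plus H2O2, against 621 FPKM with DPI and 2286 FPKM in mock (log2 ratio 1.43). The gibberellin-induced gene GASA4 had 3018 FPKM with DPI plus H2O2, against 2189 FPKM with DPI and 3506 FPKM in mock. Genes for cytosolic ribosomal proteins were within 1.5-fold in 121 of 136 cases, with 4 higher and 11 lower as deposited, and relative to the median gene 1 was higher and 43 were lower.

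Genes were also grouped by 2 comparisons that contain none of the libraries compared here, although both contain the Col-0 mock libraries and so are not independent of each other. Of 2193 genes at least 2-fold higher in bzr1-1D mock than in Col-0 mock, 64.9% were higher and 0.638% lower with H2O2 (27.2% and 4.16% of all genes), and their median log2 ratio was 0.77. Of 1149 genes at least 2-fold lower in bzr1-1D mock, 5.74% were higher and 23.2% lower, with a median of -0.27. Genes that the bzr1-1D allele raises were thus mostly on the higher side with H2O2, and genes it lowers mostly below the median gene. Relative to the median gene the shares higher and lower were 40.5% and 2.01% in the raised class, and 2.96% and 47.6% in the lowered class. At a 4-fold cut the raised class had 421 genes, 70.3% higher and 1.19% lower as deposited. The lowered class then had 141 genes, 13.5% higher and 29.8% lower.

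The second grouping used the response of Col-0 to DPI. Of 1180 genes at least 2-fold lower with DPI in Col-0, 69.2% were higher and 0.932% lower with H2O2 in bzr1-1D (median log2 ratio 0.84). Of 279 genes at least 2-fold higher with DPI in Col-0, 17.2% were higher and 23.7% lower (median -0.02). Relative to the median gene the shares higher and lower were 46.3% and 2.29% in the class that DPI lowered, and 8.24% and 37.3% in the class that it raised. The raised class depended on the cut. At 4-fold it had 62 genes, of which 27.4% were higher and 14.5% lower as deposited (median 0.20). The lowered class at 4-fold had 125 genes, of which 73.6% were higher and 2.4% lower. 

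**Figure D4:**
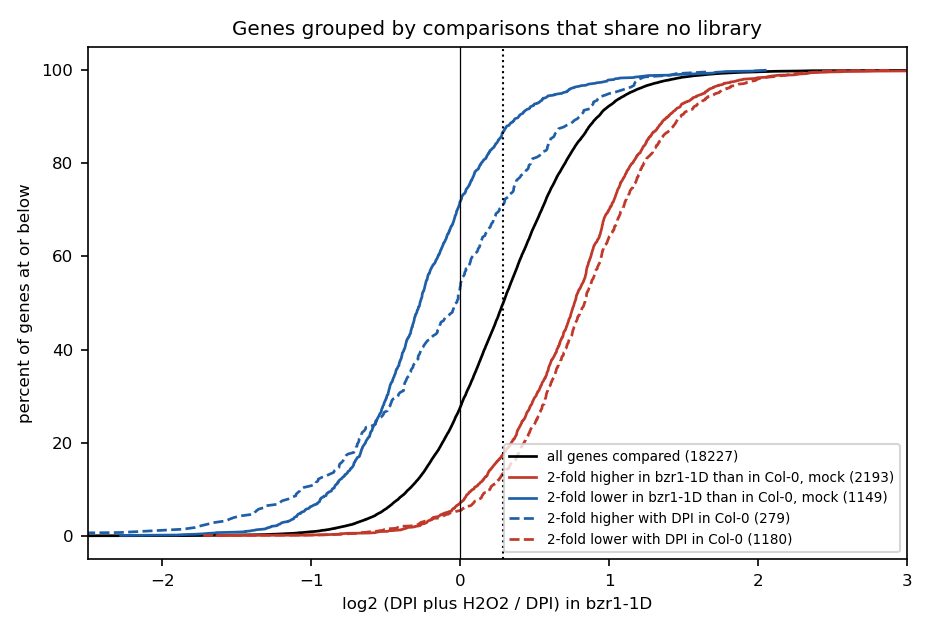
Cumulative share of genes (vertical axis, percent) by log2 ratio of DPI plus H2O2 over DPI in bzr1-1D (horizontal axis), for all genes compared and for genes at least 2-fold different in bzr1-1D mock against Col-0 mock (solid) or in Col-0 with DPI against mock (dashed). The red curves lie to the right of the black curve with medians of 0.77 and 0.84, and the blue curves lie to its left with medians of -0.27 and -0.02.

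The samples are labelled hypocotyl, and markers of other organs were measured in the same groups. Genes of the root endodermis were present: CASP1, which builds the Casparian strip, had 126 FPKM with DPI plus H2O2, against 79.5 FPKM with DPI and 145 FPKM in mock, and CASP5 had 29.0 FPKM with DPI plus H2O2, against 13.4 FPKM with DPI and 74.2 FPKM in mock. WOX5, which defines the root stem cell niche, stood at 0.235 FPKM with DPI plus H2O2 and 0.0700 FPKM with DPI. The summed level of 10 root markers was 307 FPKM with DPI plus H2O2, against 195 FPKM with DPI and 372 FPKM in mock, and 5 of 9 compared were higher and 1, NRT2.1, lower. Root hair markers summed to 29.5 FPKM with DPI plus H2O2, against 19.0 FPKM with DPI and 50.1 FPKM in mock. Of those compared, 4 of 5 were higher. Relative to the median gene only 1 of these 5 was higher, and of the 9 root markers 3 were higher and 1 lower. RSL4, which defines growing root hairs, stood at 0.405 FPKM with DPI plus H2O2 and 0.153 FPKM with DPI. Seed storage and oil body genes of the embryo summed to 460.4 FPKM with DPI plus H2O2, against 469.9 FPKM with DPI and 310.1 FPKM in mock, with 4 of 10 lower. All 5 mesophyll markers were lower; they are the Rubisco small subunit genes and RCA, its activase. In bulk RNA, fewer cells of a type and less RNA per cell cannot be told apart. The part of root, cotyledon or embryo tissue in the differences of aquaporin, wall, peroxidase and photosynthesis genes was not tested.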

How the data were processed

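RNA-Seq libraries of dark-grown seedlings were sequenced on the BGISEQ-500 platform. The authors mapped reads to TAIR10 with HISAT and Bowtie2 (versions not given in the sources used here), averaged expression within each group and compared groups with NOISeq. The deposited values used here are group means in a unit the files do not name, taken as FPKM from their size and scaling by gene length. Their log2 ratio, direction and probability columns hold the authors' comparison and were not used. Zeros were deposited as 0.01 FPKM. Depth per sample is unknown.

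From the means, log2 ratios of DPI plus H2O2 over DPI were computed in Python 3.11.15 with pandas 2.3.3, without a pseudocount, for genes whose 2 group means averaged 1 FPKM or more, with neither at 0.01 FPKM. A gene was called at 1.5-fold, the fold of the study. The steps were tested on simulated data. No test between groups was made. Lists were matched to loci through RefSeq symbols (23270 of 23468 loci matched); members and lists were chosen with earlier results of these data known. Named genes were the 12 highest and 12 lowest ratios at 10 FPKM or more, the 5 largest rises and drops in FPKM, genes the study names, and from each list the 5 largest ratios and 3 highest levels; others (as HY5, PAL1, NDB2, NDB4, CCS, CSD2, CSD3, FSD2, FSD3, FLS1, GLK2, XTH9, RSL4 and SAUR71) were chosen after their values were seen. Alternatives were a 2-fold threshold, no minimum or 5 FPKM, pseudocounts of 0.1 and 1 FPKM, centring on the median gene and scaling to the same total. A table that ended within a row and the filtered tables were not used here.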

Additional observations from a re-analysis of the deposited data

How the results depend on the processing

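Against 4956 higher and 758 lower genes, a 2-fold threshold gave 1401 and 162, no minimum gave 6594 and 1373, and a minimum of 5 FPKM gave 2975 and 507. Centring on the median gene gave 2155 and 2123, so that 50.4% of calls were higher in place of 86.7%. Pseudocounts of 1 and 0.1 FPKM and scaling to the same total kept both counts within 1.5 times. Of 41 lists, 29 had a median above 0, and 16 after centring, where 13 changed sign, among them brassinosteroid signalling, expansins, tubulins, gibberellin, ethylene and jasmonate, and mitochondrial stress genes. Lists with at least 50% of their compared members higher numbered 11, with 0 at 2-fold and 2 after centring (Aux/IAA and SAUR), and lists with at least 33.3% lower numbered 8, with 1 at 2-fold. Of 219 named genes past 1.5-fold, 178 stayed past it after centring and 206 with a pseudocount of 1 FPKM, and none of them changed sign under these 2 settings.

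No paired analysis was possible because the values are group means with no value per sample, and leaving out each replicate was not run for the same reason. The fold of a gene has no error, the group with H2O2 is a mean over 2 libraries, and the read number behind a gene near 1 FPKM is unknown.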

Other observations

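Genes at the lowest table value in 1 group were left out of the counts. At a mean of at least 1 FPKM they were 5, of which 4 were listed at 0.01 FPKM with DPI plus H2O2 and 1, AT4G21063, with DPI. The 4 nuclear genes among them are annotated as hypothetical proteins, and the other is the mitochondrial ATMG01280.

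Other gene groups were looked at in the same way. Heat shock proteins were higher in 4 of 8 genes compared and lower in none, at low levels: HSP101, a chaperone that dissolves aggregates, had 2.69 FPKM with DPI plus H2O2, against 1.36 FPKM with DPI and 4.29 FPKM in mock. Ethylene synthesis genes differed in direction. ACO5, an ACC oxidase, had 70.4 FPKM with DPI plus H2O2, against 24.3 FPKM with DPI and 83.2 FPKM in mock, whereas the ACC synthase gene ACS7 was lower, with 7.32 FPKM with DPI plus H2O2, against 15.6 FPKM with DPI and 1.24 FPKM in mock. Gibberellin genes were mixed, with 6 of 21 higher and 2 lower, and the synthesis gene GA20OX1 had 1.99 FPKM with DPI plus H2O2, against 0.607 FPKM with DPI and 3.31 FPKM in mock. KCS12, of fatty acid elongation, had 69.1 FPKM with DPI plus H2O2, against 31.2 FPKM with DPI and 13.5 FPKM in mock and so stood above both DPI and mock with H2O2. In the clock list, PRR7 had 7.25 FPKM with DPI plus H2O2, against 3.14 FPKM with DPI and 10.4 FPKM in mock and 3 of 17 genes were higher, a smaller share than among all genes. Histone genes were higher in 9 of 38 cases (23.7%) and lower in none, and tubulins in 3 of 15 (20%) and none. The glucosinolate list had 5 of 17 higher (29.4%) and 1 lower. These higher shares are near the 27.2% of all genes or below it. Mitochondrion-encoded genes were higher in 5 and lower in 14 of 55 compared, most at low levels.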
